A study of Mus musculus with 5 samples.

Results

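The genes described here encode the presynaptic machinery that fills, docks, fuses and retrieves synaptic vesicles. They are a list of 45 symbols matched to the gene name in the expression table. The rule uses no measured value, but the list was drawn up with earlier results of these data known. The table has a row for 44 of the 45 among its 19221 genes. Of these, 43 reached 1 RPKM (reads scaled by exon length and by the library's total) in at least 1 library and were analysed with the 12783 genes that did so. Stxbp5l, a relative of the syntaxin-binding protein tomosyn, was under that level in every library, at 0.428, 0.227, 0.200, 0.355 and 0.381 RPKM in sham, at 4 hours and at days 1, 3 and 10. Slc17a6, which encodes the second neuronal vesicular glutamate transporter, was not analysed here.

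RNA came from micropunched caudate putamen and was sequenced as 5 libraries. The mice were C57BL/6 males, 9 weeks old, with no genetic modification named in the labels. For the 4 stroke libraries, rose bengal at 100 mg/kg was injected and light of 532 nm and 30 mW was then delivered for 2 min through a fibre 3 mm below the dura, which closes the lit vessels by clotting. Punches from 6 animals made up each of these libraries, which were taken 4 hours or 1, 3 or 10 days after the lesion. The sham library pooled the opposite caudate putamen of mice from the study, where the same fibre and light were applied before the dye was given, so those mice also carried a lesion on the other side. Every group is therefore 1 pooled library: no difference below has a replicate check, and no test between conditions was made.

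At a presynaptic terminal, transporters load vesicles with glutamate or GABA, the latter made by the glutamate decarboxylases. Vesicles are held by synapsins, brought to the active zone by Rab3, RIM and Munc13 proteins, and fused by a complex of a vesicle SNARE (synaptobrevin, the VAMP proteins) with the plasma membrane SNAREs syntaxin and SNAP-25. Synaptotagmins sense the calcium that enters with an action potential, complexins clamp and promote fusion, and NSF takes the spent complex apart before the membrane is recovered by endocytosis. Most neurons of the caudate putamen are GABAergic projection neurons, whereas its glutamatergic terminals come from cortex and thalamus, so that the RNA of those terminals' proteins lies mostly in cell bodies outside the nucleus.

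Promoters of 5 members are printed because the results turn on the GABA genes, the glutamate transporter gene and the synapsin that is the classical target of the neuronal gene repressor REST. Each run is the 250 bases before the RefSeq start on GRCm38.p6, 5′ to 3′ in the direction of the gene, and capitals mark the motifs searched.
Slc32a1 (chr2:158610508-158610757, plus strand): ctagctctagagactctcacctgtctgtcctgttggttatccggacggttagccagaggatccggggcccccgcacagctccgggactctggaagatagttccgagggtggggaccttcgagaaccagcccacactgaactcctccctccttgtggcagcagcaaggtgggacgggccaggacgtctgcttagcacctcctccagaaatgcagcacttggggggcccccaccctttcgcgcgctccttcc
Gad1 (chr2:70561879-70562128, plus strand): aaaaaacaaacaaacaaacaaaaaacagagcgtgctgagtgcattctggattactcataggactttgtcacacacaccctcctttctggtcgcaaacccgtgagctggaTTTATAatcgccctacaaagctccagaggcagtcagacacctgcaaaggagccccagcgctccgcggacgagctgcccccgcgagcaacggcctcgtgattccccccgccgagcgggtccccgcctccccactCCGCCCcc
Gad2 (chr2:22622077-22622326, plus strand): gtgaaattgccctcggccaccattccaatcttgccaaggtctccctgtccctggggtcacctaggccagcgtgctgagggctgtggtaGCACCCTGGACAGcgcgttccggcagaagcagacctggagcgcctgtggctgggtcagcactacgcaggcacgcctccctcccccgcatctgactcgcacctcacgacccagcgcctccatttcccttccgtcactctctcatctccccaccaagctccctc
Slc17a7 (chr7:45163671-45163920, plus strand): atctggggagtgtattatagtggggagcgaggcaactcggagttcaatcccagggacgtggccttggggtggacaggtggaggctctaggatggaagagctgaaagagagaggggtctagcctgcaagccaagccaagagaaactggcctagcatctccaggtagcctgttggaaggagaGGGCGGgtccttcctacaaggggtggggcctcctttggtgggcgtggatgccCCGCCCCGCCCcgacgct
Syn1 (chrX:20920919-20921168, minus strand): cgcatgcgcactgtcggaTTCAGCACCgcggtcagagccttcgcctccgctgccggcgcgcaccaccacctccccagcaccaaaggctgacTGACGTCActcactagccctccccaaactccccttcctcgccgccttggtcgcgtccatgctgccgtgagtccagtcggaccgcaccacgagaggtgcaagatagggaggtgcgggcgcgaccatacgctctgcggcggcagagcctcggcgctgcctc
RefSeq windows of 300 bases, from 250 before to 50 after a start, were given for 34 member genes (44 promoters). Both strands were searched. TTCAGCACC, the first part of the REST motif, was in 2 of the 44 (Syn1 and Unc13a), 4.55% against 0.371% of all 32851 promoters. The longer second part was in 1 (Unc13a), against 0.137% of all, and the core that spans the join and overlaps both parts was in 2 (Gad2 and Syt2), against 0.0944%. The GC box GGGCGG was in 29 of 44 (65.9% against 35.7%), TATAAA in 3 (6.82% against 13.6%) and the cAMP response element TGACGTCA in 1, Syn1 (1.79% of all). The printed Slc32a1 window held none of the motifs. These matches are letters in a window, not measured binding. Rest itself was at 0.151, 0.133, 0.146, 0.328 and 0.291 RPKM in sham, at 4 hours and at days 1, 3 and 10.

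Library totals ranged from 42261646 to 48013775 reads, as recovered from the steps of the RPKM values. RPKM depends on what else fills a library, so each comparison was also made after median-of-ratios scaling, which centres the genes of each library on those of sham. The median log2 fold of all analysed genes as deposited was 0.28 at 4 hours and then -0.02, 0.12 and 0.07 at days 1, 3 and 10, and it was -0.01, 0.01, 0.00 and -0.03 after that scaling. Markers of neighbouring cells moved with the libraries. The summed RPKM of 5 choroid plexus and ependyma markers was 81.7 in sham, 742 after 4 hours, 307 on day 1, 26.2 on day 3 and 6.89 on day 10. Up to day 3 that sum was mostly Ttr, at 77.4, 729, 303, 19.6 and 0.205 RPKM in the same order. Foxj1, most of the sum on day 10, was at 3.23, 4.83, 2.24, 6.18 and 6.47 RPKM. The sum of 8 microglia and macrophage markers was 47.7, 47.2, 42.8, 321 and 209 RPKM. Of that sum, Cd68 alone was 211 RPKM on day 3 and 81.9 on day 10. The 14 projection neuron markers, none at 0 in any library, summed to 2077, 2630, 1059, 1566 and 1762 RPKM, so the labelled tissue is present in each library. Most of that sum was Ppp1r1b, at 1019, 1004, 476, 657 and 849 RPKM, and Penk, at 432, 836, 236, 474 and 388 RPKM. In bulk tissue, fewer cells of a type and less RNA per cell cannot be told apart. The part of these markers in the results below was not tested.

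Against sham, the presynaptic genes were higher at 4 hours, lower at day 1, lowest at day 3 and nearer to sham at day 10. Folds are log2((stroke RPKM + 1) / (sham RPKM + 1)), and the added 1 shrinks those of genes with low values. The median of the 43 members was 0.49 at 4 hours, then -0.25, -0.46 and -0.18 at days 1, 3 and 10. After median-of-ratios scaling it was 0.10, -0.22, -0.54 and -0.31, so most of the value at 4 hours went with the scaling and the values at days 3 and 10 were further below sham. Of 12 general neuron markers 11 were analysed, with medians of 0.41, -0.26, -0.34 and -0.21 at the same times. After that scaling their medians were 0.01, -0.21, -0.47 and -0.34, so this course is not particular to the members. At 4 hours 39 members were above sham and 4 below, where 78.1% of all genes were above. With the scaling 25 were above and 18 below, where 48.3% of all were above. At day 3, 42 of 43 were below sham, against 41.0% of all genes, and 43 of 43 after the scaling, against 49.7% of all. The day 3 library also had the highest microglia and macrophage sum, which was mostly Cd68. The median log2 fold of the 7 of these markers analysed was higher at day 10 (1.76) than at day 3 (1.46). The 4-hour library had the highest choroid plexus and ependyma sum, mostly Ttr. The part of these markers in the members' medians was not tested.

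**Figure D1:**
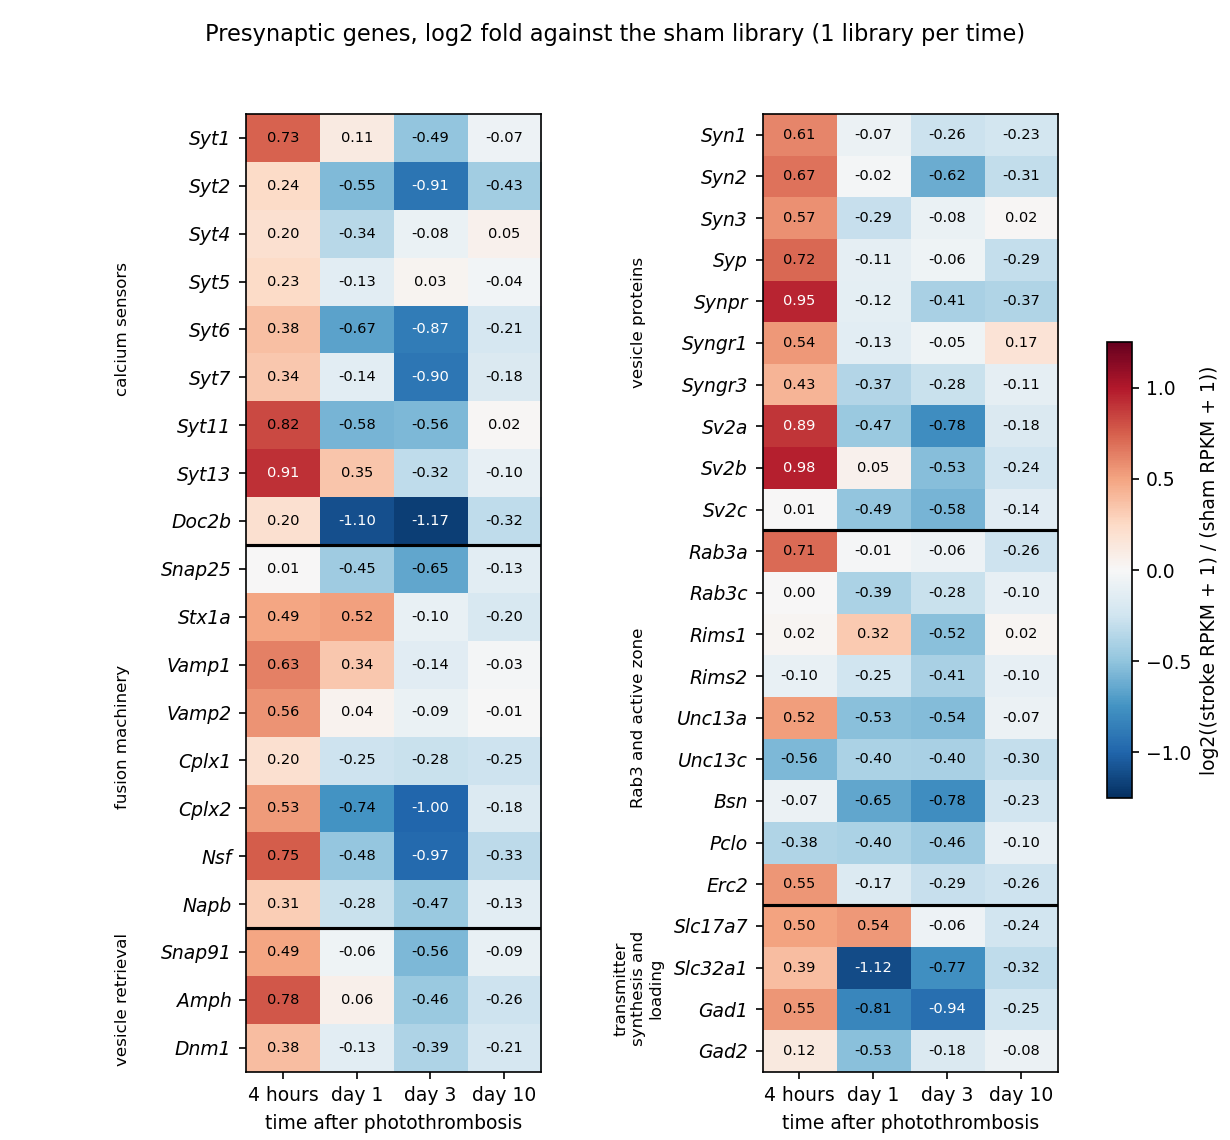
Log2 fold against sham of the 43 analysed members (rows, grouped by role) in the 4 stroke libraries (columns), from RPKM plus 1; blue is below sham and red above. The 4-hour column is above sham in 39 rows and the day 3 column below it in 42.

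Few members passed 2-fold. At 4 hours 0 of 43 were 2-fold higher (2.2% of all genes) and 0 were 2-fold lower (1.09% of all). At day 1 the 2 members that were 2-fold lower were Slc32a1 and Doc2b (1.35% of all), and at day 3 the only one was Doc2b (0.618% of all). No member was 2-fold lower at day 10 (0.172% of all), and none was 2-fold higher at day 1, day 3 or day 10, where 3.33%, 9.04% and 4.2% of all genes were. With the lower limit of 1.5-fold, 13 members were higher at 4 hours (18.5% of all). At that limit 6 were lower at day 1 (8.48% of all), 12 at day 3 (5.26% of all) and 0 at day 10 (0.759% of all). After median-of-ratios scaling the 1.5-fold count at 4 hours was 2 higher (3.17% of all) and 2 lower (7.26% of all), which is near the shares over all genes. At day 3 with that scaling it was 19 lower (8.48% of all). Of any size, 34 were below sham at day 1 (52.3% of all) and 38 at day 10 (39.0% of all).

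The course between neighbouring times was also taken library against library. From 4 hours to day 1, 39 members were lower (72.4% of all) and 10 were 2-fold lower (5.7% of all): Syt6, Syt11, Doc2b, Cplx2, Nsf, Synpr, Sv2a, Unc13a, Slc32a1 and Gad1. After median-of-ratios scaling only Slc32a1 of these remained 2-fold lower, at -1.06 (1.0% of all). From day 1 to day 3, 33 were lower (35.9% of all) and 8 were 1.5-fold lower (4.13% of all): Rims1, Syt7, Syt13, Stx1a, Slc17a7, Syt1, Syn2 and Sv2b. From day 3 to day 10, 38 were higher (48.5% of all) and 7 were 1.5-fold higher (3.84% of all): Doc2b, Cplx2, Syt7, Gad1, Syt6, Nsf and Sv2a.

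The library in which each gene was lowest or highest was counted without a size limit, first on the RPKM as deposited, as are the orders of libraries given for single genes below. Day 3 held the lowest value of 29 members, against 18.3% of all genes. Day 1 held the lowest value of 9 (33.6% of all), among them Slc32a1, Gad2, Syt4, Syt5 and Syt11. Day 10 held the lowest of 4, namely Stx1a, Syp, Rab3a and Slc17a7 (11.7% of all). The highest value lay at 4 hours for 36 members (48.8% of all), in sham for Rims2, Unc13c, Bsn and Pclo (4.04% of all), and at day 1 for Stx1a, Rims1 and Slc17a7 (9.51% of all). After median-of-ratios scaling, an alternative chosen after seeing the data, day 3 was lowest for 32 members (27.2% of all) and day 1 for 4 (17.5% of all). With it the highest value lay at 4 hours for 22 (25.8% of all) and in sham for 17 (15.3% of all), so the number highest at 4 hours depends on the scaling.

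Among the transmitter genes, the GABA transporter gene Slc32a1 and the glutamate transporter gene Slc17a7 lay on opposite sides of sham at day 1. Slc32a1 (chr2:158610767-158615748) encodes the vesicular GABA transporter. Its level was 60.5 RPKM in sham, 79.4 after 4 hours, 27.3 on day 1, 35.1 on day 3 and 48.3 on day 10. Day 1 was the lowest library and 4 hours the highest, and the ratio to sham at day 1 was 0.451 (counting interval 0.426 to 0.477), a log2 fold of -1.12 and -1.07 after median-of-ratios scaling. These counting intervals cover 95% of counting error only, not the spread between animals. Gad1, which encodes the larger glutamate decarboxylase, had 7.31 RPKM in sham, 11.2 after 4 hours, 3.74 on day 1, 3.33 on day 3 and 5.98 on day 10. It was lower than sham at both day 1 (-0.81) and day 3 (-0.94), where its ratio was 0.456 (counting interval 0.411 to 0.504). Gad2, the smaller decarboxylase, varied less, with 4.08 RPKM in sham, 4.53 after 4 hours, 2.53 on day 1, 3.50 on day 3 and 3.82 on day 10 and a lowest log2 fold of -0.53 at day 1.

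Slc17a7 (chr7:45163949-45176142) encodes the vesicular glutamate transporter of cortical projection neurons. It was at 59.1 RPKM in sham, 84.2 after 4 hours, 86.6 on day 1, 56.5 on day 3 and 50.0 on day 10. Both early libraries lay above sham and both late ones below it, and the day 1 ratio was 1.47 (counting interval 1.42 to 1.51). Its log2 fold of 0.54 at day 1 was the highest of the 43 members. It was the only glutamate gene among the members analysed. Slc17a8, another vesicular glutamate transporter gene and no member, was under 1 RPKM in every library, with 0.259 RPKM in sham and 0.0595 on day 1. The ratio of 2 genes within a library does not depend on the scaling. Slc32a1 over Slc17a7 was 1.02 in sham, 0.944 after 4 hours, 0.315 on day 1, 0.621 on day 3 and 0.967 on day 10, so that at day 1 it was 0.307 times that in sham (0.288 to 0.328). Gad1 over Slc17a7 at day 1 was 0.349 times that in sham (0.316 to 0.385), and at day 3 0.477 times that in sham (0.429 to 0.530). By day 10 the transporter ratio was 0.944 times that in sham (0.891 to 1.00).

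**Figure D2:**
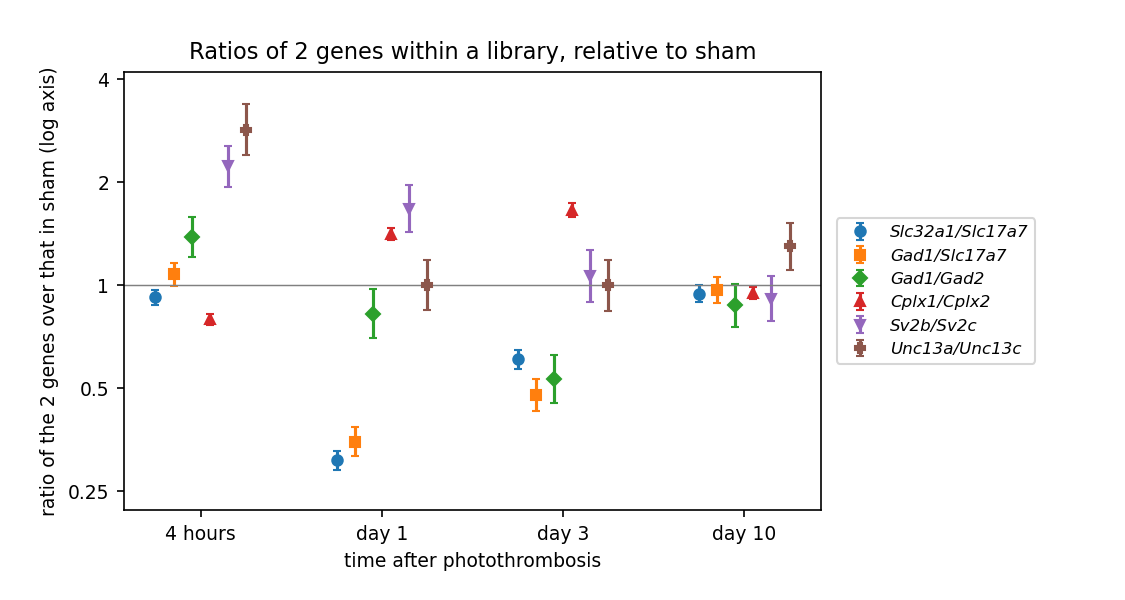
Ratio of the levels of 2 members within a library, divided by the same ratio in sham (log axis), at the 4 times for 6 pairs; bars are 95% counting intervals. The ratio of Slc32a1 to Slc17a7 is lowest at day 1, at 0.307 of its sham value.

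Markers of the cells that carry these transmitters differed at the same time. The median of 14 projection neuron markers at day 1 was -0.92, with 13 below sham (52.3% of all genes) and 6 of them 2-fold lower (1.35% of all). After median-of-ratios scaling it was -0.87, with 13 below sham (48.9% of all) and 4 of them 2-fold lower (1.17% of all). Ppp1r1b, the gene of DARPP-32, was at 1019, 1004, 476, 657 and 849 RPKM in the order of the libraries. Of 9 cortical excitatory neuron markers 7 were analysed, and 6 of the 7 were above sham at day 1 (median 0.25, with 47.6% of all genes above). Tbr1, a transcription factor of deep-layer cortical neurons, was at 2.37, 5.16, 3.71, 1.71 and 2.03 RPKM, and Neurod2 at 3.33, 7.51, 5.24, 2.42 and 2.64 RPKM. Summed over all 9, none of them at 0, the cortical markers were at 756, 1526, 733, 675 and 645 RPKM, a sum that is almost all Nrgn, which striatal neurons also express. The part of either cell type in the transmitter genes was not tested.

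The group called calcium sensors here is the synaptotagmins of the list and Doc2b. It includes Syt11 and Syt13, which do not bind calcium in the usual way. These genes were above sham at 4 hours in 9 of 9 cases (median 0.34), where 78.1% of all genes were above. After median-of-ratios scaling 4 were above and 5 below (median -0.02, with 48.3% of all above). At day 3, 8 of 9 were below sham (-0.56, with 41.0% of all below), and all 9 after the scaling (49.7% of all). Syt1, the fast sensor of synchronous release in forebrain, was at 10.6 RPKM in sham, 18.3 after 4 hours, 11.5 on day 1, 7.24 on day 3 and 10.1 on day 10. Its 4-hour value was the highest and its day 3 value the lowest of the 5. Syt2, the fast sensor of brainstem and some inhibitory terminals, was at 3.19 RPKM in sham, 3.93 after 4 hours, 1.86 on day 1, 1.23 on day 3 and 2.11 on day 10, and at day 10 its log2 fold of -0.43 was the lowest of all members. Syt1 over Syt2 was 3.33 in sham, 4.65 after 4 hours, 6.21 on day 1, 5.90 on day 3 and 4.78 on day 10. The ratio was higher than in sham in all 4 stroke libraries.

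Doc2b (chr11:75768966-75796049), a high-affinity sensor linked to spontaneous and asynchronous release, was the lowest sensor relative to sham at days 1 and 3. Its level was 8.64 RPKM in sham, 10.0 after 4 hours, 3.51 on day 1, 3.28 on day 3 and 6.72 on day 10. Days 1 and 3 stood well below the other libraries, with ratios to sham of 0.406 (counting interval 0.357 to 0.459) and 0.379 (counting interval 0.331 to 0.433). Syt7, the slow sensor of asynchronous release and facilitation, was at 7.26 RPKM in sham, 9.43 after 4 hours, 6.51 on day 1, 3.41 on day 3 and 6.31 on day 10, lower at day 3 (-0.90) than at day 1 (-0.14). Syt6 had 3.40 RPKM in sham, 4.73 after 4 hours, 1.77 on day 1, 1.41 on day 3 and 2.81 on day 10, with day 3 again the lowest.

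Syt5, the most abundant sensor, hardly varied. It was at 49.5 RPKM in sham, 58.4 after 4 hours, 45.1 on day 1, 50.7 on day 3 and 48.2 on day 10, and its highest library was 1.30 times its lowest, the smallest range of the 43 members. It was the only member above sham at day 3 as deposited (0.03), and below it after median-of-ratios scaling (-0.12). Syt11, which does not bind calcium in the usual way, was at 25.2 RPKM in sham, 45.3 after 4 hours, 16.6 on day 1, 16.8 on day 3 and 25.5 on day 10. Syt13, another such relative, was at 8.10 RPKM in sham, 16.1 after 4 hours, 10.6 on day 1, 6.30 on day 3 and 7.49 on day 10. Both were among the 5 members of highest log2 fold at 4 hours, but at day 1 Syt11 was below sham (-0.58) and Syt13 above it (0.35). Syt4, an activity-induced synaptotagmin, stayed between 2.51 (day 1) and 4.11 RPKM (4 hours).

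**Figure D3:**
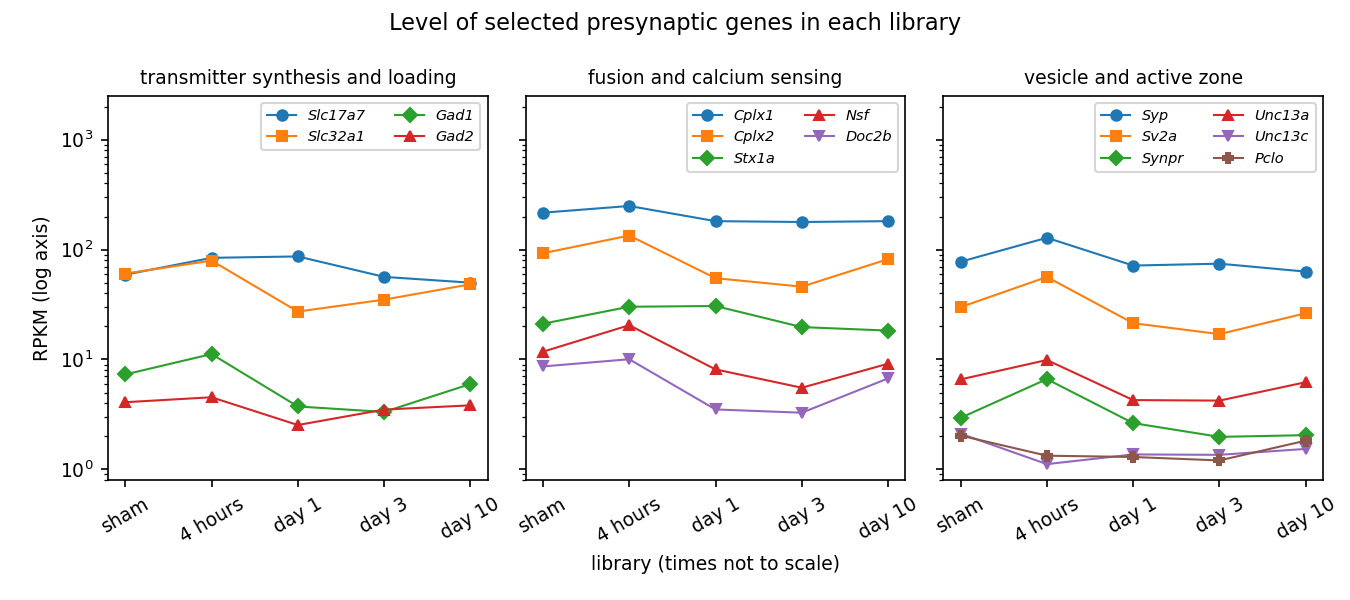
RPKM (log axis) of selected members in the 5 libraries (horizontal axis, times not to scale), in 3 panels by role, with 1 point per library. Cplx1 lies above Cplx2 in every library, and Slc32a1 and Slc17a7 part at day 1.

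The fusion genes include the most abundant members, and complexins differed from each other. Cplx1 was at 217 RPKM in sham, 249 after 4 hours, 182 on day 1, 178 on day 3 and 181 on day 10, so days 1 to 10 lay close together and below sham. Cplx2, the other main complexin of forebrain, was at 92.7 RPKM in sham, 134 after 4 hours, 55.0 on day 1, 46.0 on day 3 and 81.9 on day 10. Its day 3 ratio to sham was 0.496 (counting interval 0.479 to 0.513), just inside 2-fold on the log2 scale with pseudocount, at -0.996. Cplx1 over Cplx2 was 2.34 in sham, 1.86 after 4 hours, 3.30 on day 1, 3.88 on day 3 and 2.22 on day 10. At day 3 it was 1.66 times that in sham (1.59 to 1.73) and at day 10 0.947 times that in sham (0.911 to 0.985).

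Nsf, the ATPase that recycles SNARE complexes, had the widest range of the 43 members, 3.71-fold from its lowest to its highest library. It was at 11.8 RPKM in sham, 20.5 after 4 hours, 8.12 on day 1, 5.53 on day 3 and 9.16 on day 10. Its log2 fold was 0.75 at 4 hours and -0.97 at day 3, so it lay on opposite sides of sham by more than 1.5-fold each. Napb, the neuronal SNAP adaptor that brings NSF to the complex, was at 3.70 RPKM in sham, 4.81 after 4 hours, 2.87 on day 1, 2.40 on day 3 and 3.30 on day 10, with the same order of libraries and smaller differences.

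The SNAREs differed less between libraries than Nsf. Snap25 was at 12.7 RPKM in sham, 12.8 after 4 hours, 9.06 on day 1, 7.75 on day 3 and 11.5 on day 10, with day 3 lowest (-0.65). Stx1a, syntaxin-1A, was at 21.1 RPKM in sham, 30.2 after 4 hours, 30.7 on day 1, 19.7 on day 3 and 18.3 on day 10, the only fusion gene that was highest at day 1. Vamp2, the main synaptobrevin of forebrain, was at 124 RPKM in sham, 183 after 4 hours, 127 on day 1, 116 on day 3 and 123 on day 10, and apart from 4 hours its libraries lay between 116 and 127 RPKM. Of the 3, only Snap25 was level with sham at 4 hours as deposited. After median-of-ratios scaling the 4-hour log2 folds were -0.36 for Snap25, 0.10 for Stx1a and 0.16 for Vamp2. Vamp1, the synaptobrevin of spinal cord and brainstem, was at 2.53 RPKM in sham, 4.48 after 4 hours, 3.46 on day 1, 2.20 on day 3 and 2.47 on day 10. Vamp2 exceeded Vamp1 in every library, by 36.9-fold at day 1 to 52.9-fold at day 3. Over the 8 analysed fusion genes the median was 0.51 at 4 hours (0.12 scaled), and -0.27, -0.37 and -0.15 at days 1, 3 and 10, with 8 of 8 below sham at day 3 (41.0% of all genes) and at day 10 (39.0% of all).

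Vesicle proteins stood highest among the role groups at 4 hours. All 10 were above sham as deposited (median 0.64, with 78.1% of all genes above) and 9 of 10 after median-of-ratios scaling (0.30), where 48.3% of all genes were above. At day 3 all 10 were below sham (median -0.34, with 41.0% of all below). Sv2b, a vesicle glycoprotein strong in cortical neurons, was at 3.61 RPKM in sham, 8.08 after 4 hours, 3.79 on day 1, 2.19 on day 3 and 2.91 on day 10. Its 4-hour ratio was 2.23 (counting interval 2.04 to 2.45), and the log2 fold of 0.98 (0.62 after median-of-ratios scaling) was the highest of the members. All other libraries lay at or under 3.79 RPKM. Synpr, synaptoporin, was at 2.94 RPKM in sham, 6.63 after 4 hours, 2.63 on day 1, 1.98 on day 3 and 2.05 on day 10. Its 4-hour ratio was 2.25 (counting interval 2.05 to 2.48), a log2 fold of 0.95 and 0.61 after that scaling.

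Sv2a, the widespread member of that family and the target of levetiracetam, was at 30.0 RPKM in sham, 56.4 after 4 hours, 21.4 on day 1, 17.0 on day 3 and 26.4 on day 10. It was above sham at 4 hours (0.89) and below it at day 3 (-0.78). Sv2c, the striatal member of the family, was at 3.33 RPKM in sham, 3.34 after 4 hours, 2.09 on day 1, 1.90 on day 3 and 2.93 on day 10. At 4 hours it was level with sham as deposited, and below it after median-of-ratios scaling (-0.30). Sv2b over Sv2c was therefore 1.09 in sham, 2.41 after 4 hours, 1.82 on day 1, 1.15 on day 3 and 0.990 on day 10, and at 4 hours it was 2.22 times that in sham (1.94 to 2.55). At day 3 and day 10 that ratio lay near its sham value.

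Synapsins tether vesicles to one another and to actin. Syn1, the main synapsin, was at 40.0 RPKM in sham, 61.6 after 4 hours, 37.9 on day 1, 33.1 on day 3 and 33.9 on day 10. Syn2 was at 12.5, 20.5, 12.3, 7.76 and 9.89 RPKM in the same order. Syn3, the least abundant of the vesicle proteins, was at 0.756, 1.61, 0.439, 0.663 and 0.775 RPKM. The 4-hour library was highest for all 3, and day 3 lowest for Syn1 and Syn2, with Syn2 at -0.62. Day 1 was lowest for Syn3. Syp, synaptophysin, the most abundant of the group, was at 77.5 RPKM in sham, 128 after 4 hours, 71.6 on day 1, 74.5 on day 3 and 63.0 on day 10. Its day 10 level was the lowest of the 5. Syngr1, a synaptogyrin, was at 44.1, 64.7, 40.1, 42.4 and 49.9 RPKM in the order of the libraries. Syngr3, the other neuronal synaptogyrin, was at 31.2, 42.3, 24.0, 25.5 and 28.9 RPKM. Day 1 was lowest for both, and Syngr1 had the highest log2 fold of all members at day 10 (0.17).

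Active zone genes split at 4 hours, with 5 above sham and 4 below (median 0.00, with 78.1% of all genes above). After median-of-ratios scaling 3 were above and 6 below (median -0.27, with 48.3% of all above). The 4 below as deposited were the giant scaffolds Bsn and Pclo, the RIM gene Rims2 and the priming gene Unc13c. Bsn, bassoon, was at 20.8 RPKM in sham, 19.7 after 4 hours, 12.9 on day 1, 11.7 on day 3 and 17.5 on day 10. Pclo, piccolo, was at 2.03, 1.33, 1.30, 1.21 and 1.82 RPKM in the same order. Both were highest in sham and lowest at day 3. Unc13c, the Munc13 of cerebellum, was at 2.11 RPKM in sham, 1.12 after 4 hours, 1.37 on day 1, 1.36 on day 3 and 1.53 on day 10, with a 4-hour ratio of 0.528 (counting interval 0.447 to 0.622), the lowest of the members at that time. Unc13a, the main Munc13 of forebrain, was at 6.59 RPKM in sham, 9.89 after 4 hours, 4.27 on day 1, 4.22 on day 3 and 6.21 on day 10. Unc13a over Unc13c was 3.12 in sham, 8.86 after 4 hours, 3.12 on day 1, 3.11 on day 3 and 4.05 on day 10, and the 4-hour value was 2.84 times that in sham (2.39 to 3.38). The sham, day 1 and day 3 libraries lay between 3.11 and 3.12.

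Rab3a, the GTPase of synaptic vesicles and the most abundant of these genes, was at 111 RPKM in sham, 181 after 4 hours, 109 on day 1, 106 on day 3 and 92.4 on day 10. Apart from 4 hours it lay between 92.4 and 111 RPKM. Rab3c, its less abundant relative, was at 2.31 RPKM in sham, 2.31 after 4 hours, 1.52 on day 1, 1.73 on day 3 and 2.09 on day 10. Rims1, which links Rab3 to the calcium channels, was at 2.76 RPKM in sham, 2.81 after 4 hours, 3.71 on day 1, 1.62 on day 3 and 2.81 on day 10. It was above sham at day 1 and below it at day 3. Rims2, the other long RIM, was at 1.64 RPKM in sham, 1.47 after 4 hours, 1.22 on day 1, 0.994 on day 3 and 1.47 on day 10. Rims1 over Rims2 was 1.68 in sham, 1.91 after 4 hours, 3.04 on day 1, 1.63 on day 3 and 1.92 on day 10. The day 1 ratio was the highest of the 5. Erc2, an active zone scaffold also called CAST, was at 2.34 RPKM in sham, 3.88 after 4 hours, 1.96 on day 1, 1.72 on day 3 and 1.79 on day 10.

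Of the 3 retrieval genes, Dnm1, the neuronal dynamin that cuts vesicles free, was at 65.5 RPKM in sham, 85.7 after 4 hours, 59.9 on day 1, 49.9 on day 3 and 56.7 on day 10. Amph, amphiphysin, which recruits dynamin to the vesicle neck, was at 5.87 RPKM in sham, 10.8 after 4 hours, 6.15 on day 1, 3.99 on day 3 and 4.74 on day 10. Snap91, the clathrin adaptor AP180, was at 2.04 RPKM in sham, 3.27 after 4 hours, 1.92 on day 1, 1.06 on day 3 and 1.86 on day 10. In each of the 3 the highest library was 4 hours (48.8% of all genes) and the lowest day 3 (18.3% of all). The median log2 folds were 0.49, -0.06, -0.46 and -0.21. After median-of-ratios scaling the 4-hour median was 0.19, and day 3 was still lowest for all 3 (27.2% of all). With it Snap91 and Amph were highest at 4 hours (25.8% of all) and Dnm1 in sham (15.3% of all).

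**Figure D4:**
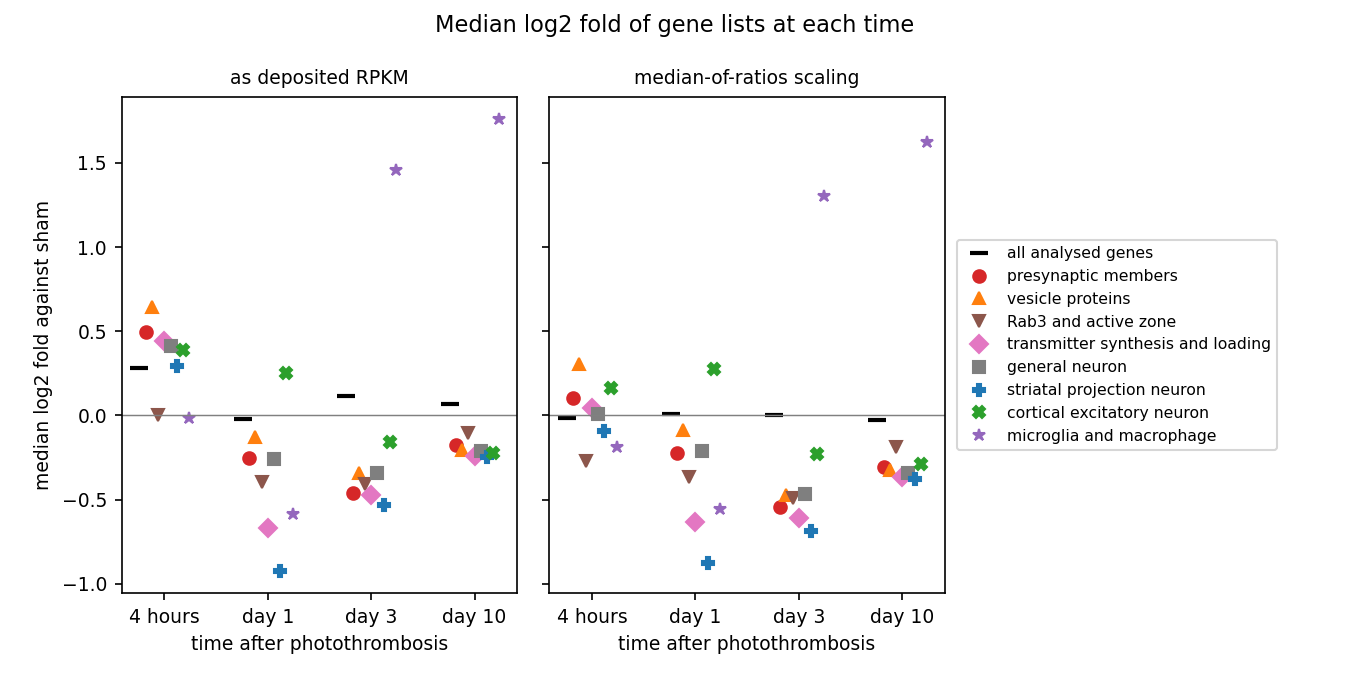
Median log2 fold against sham at each time for all analysed genes, the presynaptic members, some of their role groups and the marker lists, as deposited and after median-of-ratios scaling. Members are below all analysed genes at days 1, 3 and 10 under both scalings, and projection neuron markers are lower still at day 1 (-0.92). General neuron markers are also below all analysed genes at these times, with medians of -0.26, -0.34 and -0.21 as deposited.

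Other genes of the release pathway had medians nearer to 0 than the members at each time. Of 86 listed, 81 have a row and 65 were analysed. Their medians were 0.40, -0.07, -0.18 and -0.06. At 4 hours 3 were 2-fold higher (2.2% of all genes), namely Cplx3, a complexin of retina and of some cortical neurons (1.11), and the endophilins Sh3gl2 (1.14) and Sh3gl3 (1.17). After median-of-ratios scaling none of the 65 was 2-fold higher at 4 hours (0.54% of all). At day 3 only 2 were 2-fold higher, where 9.04% of all genes were. They were Syngr2, a synaptogyrin found mostly outside neurons (1.93), and Vamp8, an endosomal and secretory SNARE also outside neurons (1.79). Both were so at day 10 as well (1.37 and 1.64), where 4.2% of all genes were. At day 3, 42 of the 65 were below sham (41.0% of all genes). At any time 0 were 2-fold lower than sham, where 1.09%, 1.35%, 0.618% and 0.172% of all genes were.

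Gene length was also set beside the folds. Over 10108 protein-coding genes, the Spearman correlation of log2 fold with exon length was -0.41 at day 1 and -0.41 at day 3, and over the 43 members -0.15 and -0.26. These are across genes of the same libraries and describe them only. The members have long transcripts, with a median exon length of 6791 bases against 3917 for protein-coding genes, and 22 of the 43 lie in the longest of 4 equal bins of those genes. In that bin the medians at days 1 and 3 were -0.20 and -0.14 for all protein-coding genes and -0.28 and -0.53 for the 22 members. In the shortest bin they were 0.25 and 0.41 against -0.19 and -0.17 for 4 members (Syt5, Cplx1, Syngr3 and Rab3a). The members' medians were below those of all protein-coding genes in each of the 4 bins at day 1 and at day 3.

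**Figure D5:**
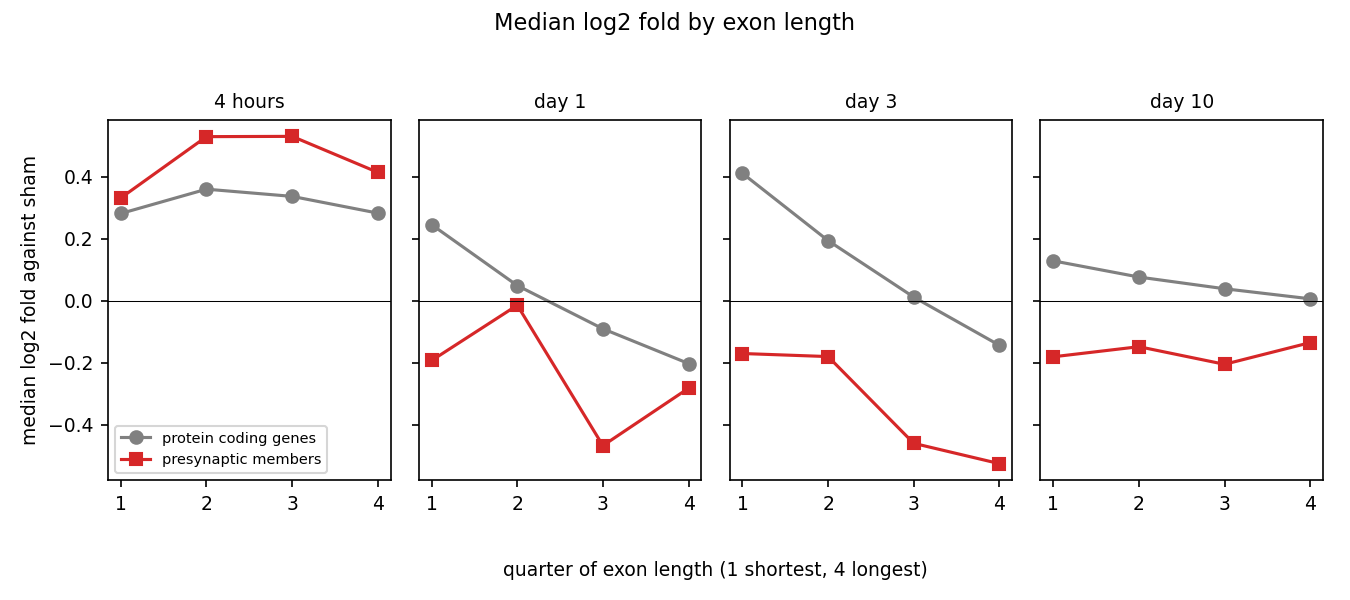
Median log2 fold against sham (vertical axis) in 4 bins of exon length, from shortest to longest (horizontal axis), for all protein-coding genes (grey) and the members (red), with 1 panel per time. At days 1 and 3 the members' median is below the grey one in each of the 4 bins.

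Strand use in the counting was not given in the sources used here, and 15 of the 43 analysed members share exon bases with another gene. Both members that were 2-fold lower at day 1 are among them. The 28 members that share none therefore gave 0 at day 1 (1.35% of all genes) and 0 at day 3 (0.618% of all). Slc32a1 overlaps the antisense gene Gm14205, listed at 53.8, 68.2, 23.4, 29.8 and 41.3 RPKM, also lowest at day 1. Doc2b overlaps Gm12339, at 2.00, 2.91, 0.686, 0.564 and 1.61 RPKM. Syp overlaps the antisense gene Gm14703, at 75.1, 125, 67.0, 74.8 and 66.3 RPKM, close to the values of Syp in every library. Syn3 overlaps Timp3, at 1.89, 3.70, 0.914, 1.48 and 1.93 RPKM. Syn1 overlaps Araf, Syn2 Timp4, Rab3a Mpv17l2, Unc13a Colgalt1 and Pclo the antisense genes Gm26918 and Gm26954, and Syt4, Syt6, Syt7, Sv2b, Bsn and Erc2 also share exon bases with another gene. Bsn shares them with a gene on its own strand, and the rest of the 15 with genes on the opposite strand. Whether the counting separated the strands is not known, so reads in shared bases may belong to the partner.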

How the data were processed

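The 5 pooled RNA samples were extracted with Trizol and made into total RNA libraries, per the labels. Build GRCm38 and the tools HISAT2 2.1.0, StringTie 1.3.4d and Trimmomatic 0.36 are named in the submitters' processing notes. Strand use in counting and the annotation version were not given in the sources used here. Each gene and library has 1 deposited RPKM value, per the file headers, beside GFOLD values at the setting 0.01, which are log2 folds shrunk towards 0 for genes with few reads. Where the text uses GFOLD values, they are from the authors' deposited table.

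Genes that reached 1 RPKM in any library were kept, and log2 folds used a pseudocount of 1. With 1 library per group no test was made, and sizes of 2-fold and 1.5-fold were counted over the members and over all 12783 genes. RPKM times the union exon length of GENCODE release M21 on GRCm38 gave whole reads, within 0.02, for 90.1% to 90.5% of values. Intervals for the ratio of a gene to sham are exact conditional binomial ones at 95%. Those for ratios of 2 genes are 95% normal approximations on the log scale. Both kinds use reads divided by 2, since even numbers were in excess. They are given only for the 40 of 44 members with whole reads in every library (not Syt1, Syt4, Syt7 and Rims2). They cover counting error only, as copies made in PCR are not independent molecules.

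The named genes are all members by role, with values in every library for those past 2-fold, the 3 highest and lowest at each time, the highest and lowest of each role and close relatives. Alternatives were median-of-ratios and trimmed-mean-of-M-values scaling, protein-coding genes rescaled to the same total, a pseudocount of 0.1, a floor of 5 RPKM, no floor, 1.5-fold, GFOLD values and, chosen after seeing the data, members sharing no exon and median-of-ratios scaling for the highest and lowest library. The members and all lists were chosen with earlier results of these data known. Only the recovery of library totals and the 2-fold rule were tested on simulated data, which had no excess of even read numbers. Python 3.11.15, pandas 2.3.3, numpy 2.4.6, scipy 1.17.1 and matplotlib 3.10.9 were used.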

Additional observations from a re-analysis of the deposited data

Results flagged for a closer look

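Nsf, Syn2 and Sv2a were more than 1.5-fold above sham in the 4-hour library and more than 1.5-fold below it in the day 3 library. The log2 folds were 0.75 and -0.97 for Nsf, 0.67 and -0.62 for Syn2, and 0.89 and -0.78 for Sv2a. With 1 library at each time the difference between the times was not tested. After median-of-ratios scaling the 4-hour values were 0.37, 0.29 and 0.49, and the day 3 values -1.10, -0.76 and -0.93, so all 3 kept their directions and none was then 1.5-fold higher at 4 hours.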

How the results depend on the processing

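The members' medians kept their direction at all 4 times under every alternative run. At 4 hours the median of 0.49 was 0.10 with median-of-ratios scaling, 0.12 with trimmed-mean-of-M-values scaling and 0.20 with protein-coding genes rescaled. That rescaling gave -0.42 at day 1, -0.79 at day 3 and -0.36 at day 10, where median-of-ratios scaling gave -0.31. Each count is followed by the share of all 12783 genes under the same setting. Members 2-fold higher at 4 hours numbered 0 (2.2%), but 2 with a pseudocount of 0.1 (6.53%), 2 by the authors' deposited GFOLD value (2.36%) and 13 at 1.5-fold (18.5%). Members 2-fold lower at day 1 numbered 2 (1.35%), but 4 after the protein-coding rescaling (3.36%) and 6 at 1.5-fold (8.48%). At day 3 there was 1 (0.618%), but 5 with median-of-ratios (1.15%), 5 with trimmed-mean-of-M-values (1.17%), 13 after the protein-coding rescaling (3.83%), 7 with a pseudocount of 0.1 (2.51%), 12 at 1.5-fold (5.26%) and 4 by the authors' deposited GFOLD value (0.728%). Among the 28 members sharing no exon there were 0 at day 1 (1.35%) and 0 at day 3 (0.618%). These 2 shares are over all genes, whether or not they share exons. With shares so small, a count of 0 among 28 is no result about the members. No paired analysis was possible because each group is 1 library, and for the same reason no library could be left out. Depth limits single genes through counting error, with a median interval half-width of 0.10 to 0.13 on the log2 scale over 40 members.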

Other observations

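Of 8 striatal interneuron markers 7 were analysed, and at day 1 4 of the 7 were above sham and 3 below (median 0.19, with 47.6% of all genes above). Sst, the peptide somatostatin of one interneuron type, was at 185 RPKM in sham, 327 after 4 hours, 277 on day 1, 235 on day 3 and 167 on day 10. Npy, a peptide of the same cells, was at 74.1, 118, 118, 118 and 56.2 RPKM in that order. Nos1, the nitric oxide synthase that these cells also make, was at 2.42, 2.89, 1.06, 1.02 and 1.98 RPKM, so at day 1 it lay below sham (-0.73) where Sst and Npy lay above it. Pvalb, of fast-spiking interneurons, was at 23.6, 30.3, 38.7, 24.4 and 19.6 RPKM, above sham at day 1, as was Calb2 (0.19), while Th was at -0.11. Chat, which makes acetylcholine, was at 1.57, 3.07, 1.02, 1.39 and 1.56 RPKM, and Slc18a3, the vesicular acetylcholine transporter, at 3.74, 5.10, 1.48, 2.77 and 2.91 RPKM, both lowest at day 1 as Slc32a1 was.

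The comparison of day 1 with sham and that of day 10 with day 3 share no library. Over the 43 members their log2 folds had a Spearman correlation of -0.59, so members lower at day 1 tended to be those higher at day 10 than at day 3. Over 10108 protein-coding genes it was -0.60, so this relation is not particular to the members. Both are across genes, which are not independent replicates.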
